A study of Homo sapiens with 6 samples.

Results

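The TGF-beta ligands TGFB1, TGFB2 and TGFB3, the receptors TGFBR1, TGFBR2 and TGFBR3, the signal transducer SMAD3 and the feedback inhibitors SMAD7 and SKIL were read on every array probe that carried one of these 9 gene names, among 43317 gene names on the array. They had 10 probes, 2 for TGFBR2 and 1 for each other gene. BT474 cells are an established ER-positive and HER2-positive luminal breast cancer line. The stable populations compared, with 2 arrays each, were Control cells with an empty pcDNA3.1 plasmid, BT474-Var1 cells carrying pcDNA3.1/Hygro(+) with the long variant 1 of the long noncoding RNA NR2F1-AS1, and BT474-Var4 cells carrying pcDNA3.1-P2A-eGFP with its short variant 4. All were transfected by nucleofection. The study describes a loss to few cells and regrowth as colonies for the variant populations and does not say so of Control, so this history and the variants cannot be told apart. The methods name both empty plasmids as negative controls and do not state which one the arrayed Control cells carried. Since the 2 variants were carried by different plasmids, plasmid and variant cannot be told apart. The labels do not say that the 2 arrays of a group came from separate cultures, so the p-values measure the spread between these arrays, which may be technical.

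The labels held on the arrays. On the probe at chr5:92889467-92889526 (hg19), NR2F1-AS1 lay at 3.01 and 3.02 in BT474-Var4 cells, -1.69 and -1.52 in BT474-Var1 cells and -5.76 and -4.16 in Control cells. These are log2 intensities relative to the 75th percentile of the same array, the scale of every level given here, so that 0 is that percentile. This probe was above Control in both populations, so it does not tell the variants apart. The probe at chr5:92877924-92877983 averaged 1.58 in BT474-Var4, -6.2 in BT474-Var1 and -5.34 in Control cells. The probes at chr5:92745544-92745603 and chr5:92746995-92747054 averaged -0.47 and -0.21 in BT474-Var1 cells. They averaged -6.03 and -4.13 in BT474-Var4 and -6.5 and -3.96 in Control cells. Of 10 luminal markers, including ESR1, ERBB2 and the keratins KRT8 and KRT18, 10 were well above background on all 6 arrays. The share of probes well above background was 47.6% to 57.5% per array. All arrays lay on 1 slide, with both BT474-Var1 arrays in another column than the other 4, so slide column and BT474-Var1 cells cannot be told apart.

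TGF-beta ligands are secreted in a latent form held by their own propeptide and by latent TGF-beta binding proteins. Once released, they bind the receptor TGFBR2, which activates TGFBR1, and TGFBR1 phosphorylates SMAD2 and SMAD3, which enter the nucleus with SMAD4. SMAD7 blocks the receptor and SKIL represses SMAD target genes, and both are themselves induced by the pathway. In epithelial cells the pathway is known for halting the cell cycle, and in tumor cells also for promoting invasion.

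The promoters of TGFB1 and TGFB3 are shown because these 2 ligands were called in opposite directions in BT474-Var1 cells, TGFB1 not under every processing. Both are RefSeq sequences (GRCh38.p14) of the 250 bases before a transcription start, read 5′ to 3′ on the minus strand. TGFB1 lies at chr19:41353923-41354172, and the capitals mark GGGCGG on either strand, the GC box bound by SP1. TGFB3 lies at chr14:75981996-75982245, and the capitals mark TGACGT on either strand, the core of a cAMP response element, and TATAAA, the core of a TATA box.
TGFB1: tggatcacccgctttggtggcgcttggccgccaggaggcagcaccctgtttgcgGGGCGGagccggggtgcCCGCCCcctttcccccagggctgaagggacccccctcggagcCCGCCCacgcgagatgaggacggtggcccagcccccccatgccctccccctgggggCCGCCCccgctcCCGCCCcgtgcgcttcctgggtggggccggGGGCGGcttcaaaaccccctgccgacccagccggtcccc
TGFB3: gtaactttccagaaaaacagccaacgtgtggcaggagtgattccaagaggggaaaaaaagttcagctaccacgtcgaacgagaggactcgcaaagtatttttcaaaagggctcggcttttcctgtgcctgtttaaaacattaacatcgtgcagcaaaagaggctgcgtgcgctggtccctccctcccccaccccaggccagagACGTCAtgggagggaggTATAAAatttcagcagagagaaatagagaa

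The TGFB1 window held 6 GC boxes and no TATA box core. The printed TGFB3 window held 1 TATA box core, 30 bases before the start, and 1 cAMP response element core, 47 bases before it, with no GC box. The window of the other TGFB3 start in the table held none of these 3 motifs, and that of TGFB2 held 1 TATA box core, 1 cAMP response element core and no GC box. Among 35116 promoter windows of this length, 42.6% held a GC box, 10.7% a TATA box core and 7.10% a cAMP response element core. These motifs were chosen after the sequences were seen, and a match is a description of letters, not of binding. The palindrome GTCTAGAC, which SMAD3 and SMAD4 bind, was in 0 of the 24 windows of the 9 genes and in 0.182% of all windows. CAGAC, the core of the CAGA box, was in 38.0% of all windows. Among the 9 genes it was in 2 of the 3 windows of SMAD7, 4 of 8 of TGFBR1 and 2 of 5 of SMAD3. It was in 1 of 2 windows of TGFB3 and in the 1 window each of TGFB2 and SKIL. In the windows of TGFB1, TGFBR2 and TGFBR3 it was absent.

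Of the ligands, TGFB3 fell in BT474-Var1 cells and TGFB1 rose there, and neither passed the test in BT474-Var4 cells. The question was whether either variant goes with a change of this pathway, and each population was compared with Control and with the other. TGFB3 lay at 2.84 and 2.89 in Control, 3.03 and 3.0 in BT474-Var4 and 1.70 and 1.57 in BT474-Var1 cells. The BT474-Var1 arrays lay apart below the other 4, and the group means were 2.87 ± 0.03, 3.02 ± 0.02 and 1.64 ± 0.09 (SD, n = 2). BT474-Var1 cells thus had 2.34-fold less TGFB3 than Control, a log2 difference of -1.23 (standard error 0.07, adjusted p = 0.00294 by limma with Benjamini-Hochberg adjustment over 31855 probes). BT474-Var4 cells differed from Control by 0.15 (95% interval -0.02 to 0.32, limma adjusted p = 0.163).

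TGFB1 was read by a probe whose bases lie on both sides of intronic sequence, at chr19:41838142-41847802 on the minus strand (hg19), in the coding sequence. Its 60 bases, which set what the TGFB1 signal can come from, are given as the array files hold them.
TGFB1 probe A_24_P79054: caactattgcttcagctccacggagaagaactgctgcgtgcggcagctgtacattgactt

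The TGFB1 probe was dim on every array, with a processed intensity of 10.2 and 10.7 units in Control, 30.2 and 24.5 in BT474-Var1 and 4.35 and 9.67 in BT474-Var4 cells. On the log2 scale these were -3.40 and -3.31, -1.71 and -2.0, and -4.68 and -3.56. Both BT474-Var1 arrays lay above both Control arrays, and the 2 BT474-Var4 arrays were not well above background. TGFB1 rose 2.82-fold in BT474-Var1 cells, a log2 difference of 1.5 (95% interval 0.47 to 2.53, limma adjusted p = 0.0440). In BT474-Var4 cells, at background, the difference of -0.77 from Control did not pass (95% interval -1.80 to 0.26, limma adjusted p = 0.216). It passed without BT474-Var4 replicate B (limma adjusted p = 0.0402), where the 1 array left was itself not above background and was assumed to vary like the other groups. The rise in BT474-Var1 cells was no longer called without any 1 of the 4 arrays compared, with limma adjusted p of 0.110 to 0.155, and it was 0.40 with normexp background correction.

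TGFB2 and TGFBR3 could not be tested. The TGFB2 probe was well above background on 1 of 6 arrays, a Control array at -3.74. The other Control array lay at -4.46, the BT474-Var4 arrays at -4.47 and -3.69 and the BT474-Var1 arrays at -5.54 and -6.23. By qPCR the study reports increased TGFB2 in BT474-Var1 cells, which a probe at background cannot address. TGFBR3, the betaglycan coreceptor that presents TGFB2 to TGFBR2, was well above background on 0 of 6 arrays, at -6.55 to -5.65. The plot of member levels by array shows these dim probes as open circles.

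**Figure D1:**
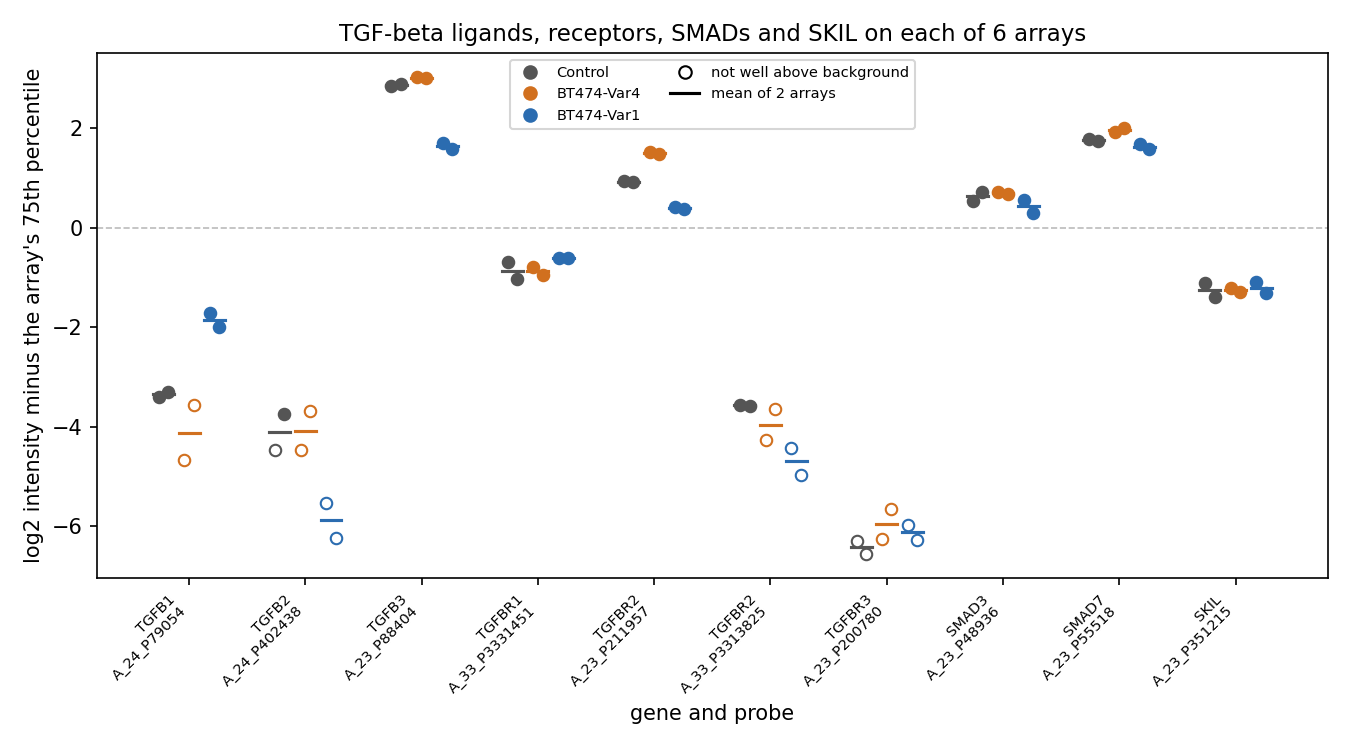
Log2 intensity relative to the array's 75th percentile (y axis) of each of the 10 probes (x axis) on the 6 arrays; points are arrays, open where not well above background, and bars are means of 2 arrays. The TGFB3 and TGFBR2 (A_23_P211957) points of BT474-Var1 cells lie below those of Control, while the TGFB1 points of BT474-Var1 cells at -1.71 and -2.0 lie above them.

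The type II receptor moved in opposite directions in the 2 populations. TGFBR2, the kinase that binds the ligand, was read at chr3:30735163-30735222 (hg19) at 0.94 and 0.91 in Control, 1.53 and 1.48 in BT474-Var4 and 0.40 and 0.37 in BT474-Var1 cells. No group overlapped another, with BT474-Var4 cells highest and BT474-Var1 cells lowest. TGFBR2 rose 1.5-fold in BT474-Var4 cells (log2 difference 0.58, standard error 0.05, limma adjusted p = 0.00601). It fell 1.45-fold in BT474-Var1 cells (log2 difference -0.53, standard error 0.05, limma adjusted p = 0.00521). BT474-Var4 cells therefore had 2.17-fold more TGFBR2 than BT474-Var1 cells (log2 difference 1.12, limma adjusted p = 0.00124).

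The other TGFBR2 probe, at chr3:30703057-30703116 (hg19), belongs to a predicted transcript. It lay at -3.56 and -3.59 in Control, -4.26 and -3.66 in BT474-Var4 and -4.42 and -4.97 in BT474-Var1 cells, and was well above background in Control alone. It was at least 1.36-fold lower in BT474-Var1 cells than in Control (limma adjusted p = 0.0384). It entered the test through Control alone, the group where it was high, so its fall lends nothing to that of the brighter probe. In BT474-Var4 cells it differed from Control by -0.38 (limma adjusted p = 0.360), on the other side of 0 from the brighter probe. The call in BT474-Var1 cells ended without any 1 of the 4 arrays compared (limma adjusted p of 0.0541 to 0.137), and with normexp the difference was -0.02.

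TGFBR1, the type I receptor kinase, did not pass in any comparison. It lay at -0.70 and -1.03 in Control, -0.79 and -0.95 in BT474-Var4 and -0.62 and -0.61 in BT474-Var1 cells. The differences from Control were 0.25 in BT474-Var1 (95% interval -0.09 to 0.60) and 0.00 in BT474-Var4 cells (95% interval -0.35 to 0.34).

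Among the intracellular genes, SMAD7 separated the 2 populations from each other but neither from Control. It lay at 1.78 and 1.74 in Control, 1.92 and 2.0 in BT474-Var4 and 1.68 and 1.58 in BT474-Var1 cells. The 3 groups did not overlap. BT474-Var4 cells exceeded BT474-Var1 cells by 0.33 (standard error 0.06, limma adjusted p = 0.0182), while the differences from Control were 0.20 (limma adjusted p = 0.0878) and -0.13 (limma adjusted p = 0.188). The difference between the populations was no longer called without BT474-Var4 replicate B, at 0.29 (limma adjusted p = 0.0767), or without BT474-Var1 replicate B, at 0.28 (limma adjusted p = 0.0715).

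SMAD3, which carries the signal to the nucleus, lay at 0.54 and 0.71 in Control, 0.71 and 0.67 in BT474-Var4 and 0.56 and 0.30 in BT474-Var1 cells. SKIL, the corepressor, lay at -1.10 and -1.40, -1.22 and -1.29, and -1.10 and -1.31 in the same order. Their groups overlapped Control, and neither passed in any comparison. The 95% intervals against Control spanned -0.49 to 0.10 in BT474-Var1 and -0.24 to 0.36 in BT474-Var4 cells for SMAD3, and -0.30 to 0.39 and -0.35 to 0.35 for SKIL.

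Of the 8 probes tested, 1 was higher and 3 lower in BT474-Var1 cells than in Control, where 14.1% and 20.3% of all tested probes were higher and lower at an adjusted p under 0.05. Of these 3 lower probes, 2 read the same gene, TGFBR2. The dimmer of the 2 entered the test, this count and the median below only through Control, where it was high. In BT474-Var4 cells 1 was higher and 0 lower by limma, with 0 lower also at an unadjusted p under 0.05, where 9.87% and 14.3% of all tested probes were higher and lower. Between the 2 populations 3 were higher in BT474-Var4 cells and 1 was lower, beside 20.4% and 20.7% of all tested probes. With 8 probes, these counts are not read further against the shares. The median log2 difference of the 8 probes was -0.16, 0.03 and 0.29 in the 3 comparisons, and that of all tested probes -0.04, -0.08 and -0.03. Both comparisons with Control share the Control arrays.

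**Figure D2:**
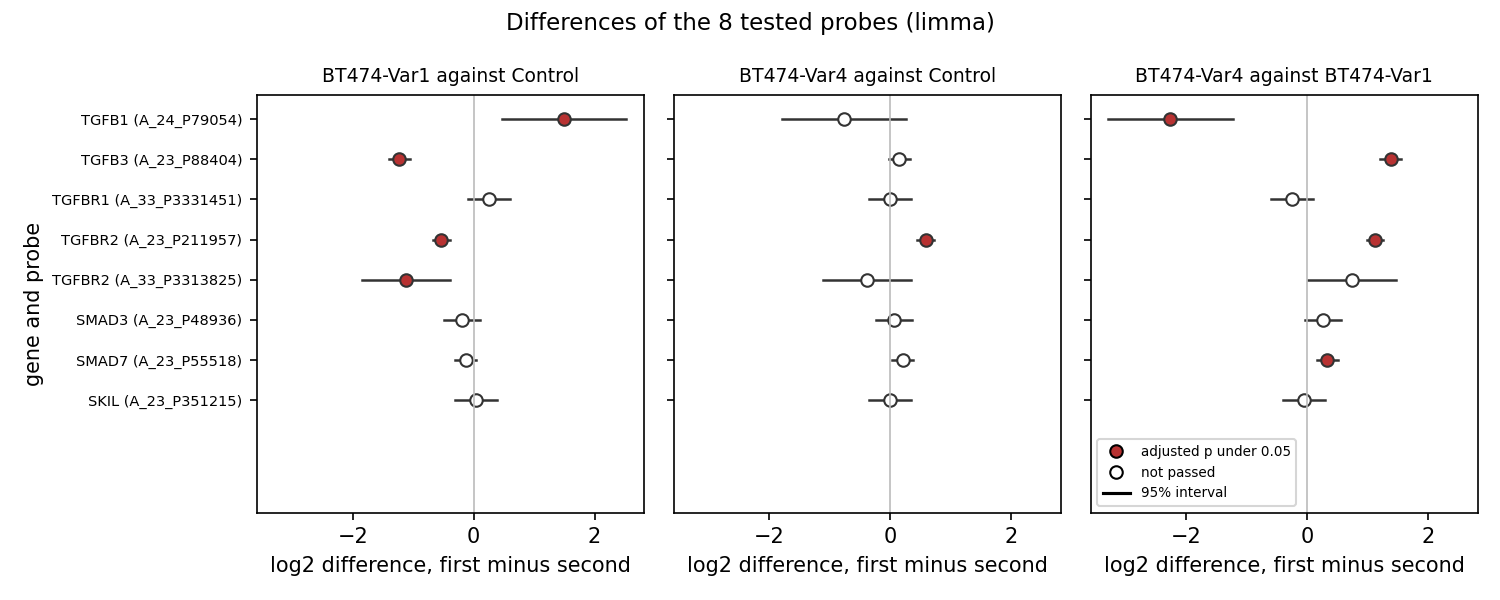
Log2 differences (x axis) of the 8 tested probes (y axis) with 95% intervals in the 3 comparisons; filled points had an adjusted p under 0.05 by limma. TGFB3 at -1.23 and the brighter TGFBR2 probe at -0.53 lie left of 0 in BT474-Var1 against Control, and TGFB1 at 1.5 lies right of 0. The TGFBR2 point at -1.12 is of the dimmer probe, which was not well above background in BT474-Var1 cells.

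The calls for TGFB3 and for the brighter TGFBR2 probe did not depend on the processing in BT474-Var1 against Control, where 15 of 15 alternatives kept each call. TGFB3 ranged from -1.29 to -1.13 over them and this TGFBR2 probe from -0.55 to -0.38. The TGFB1 rise kept its call in 6 of 14 alternatives. In BT474-Var4 cells TGFBR2 kept its call in 14 of 15, the exception being the test without a filter on dim probes (limma adjusted p = 0.0605).

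**Figure D3:**
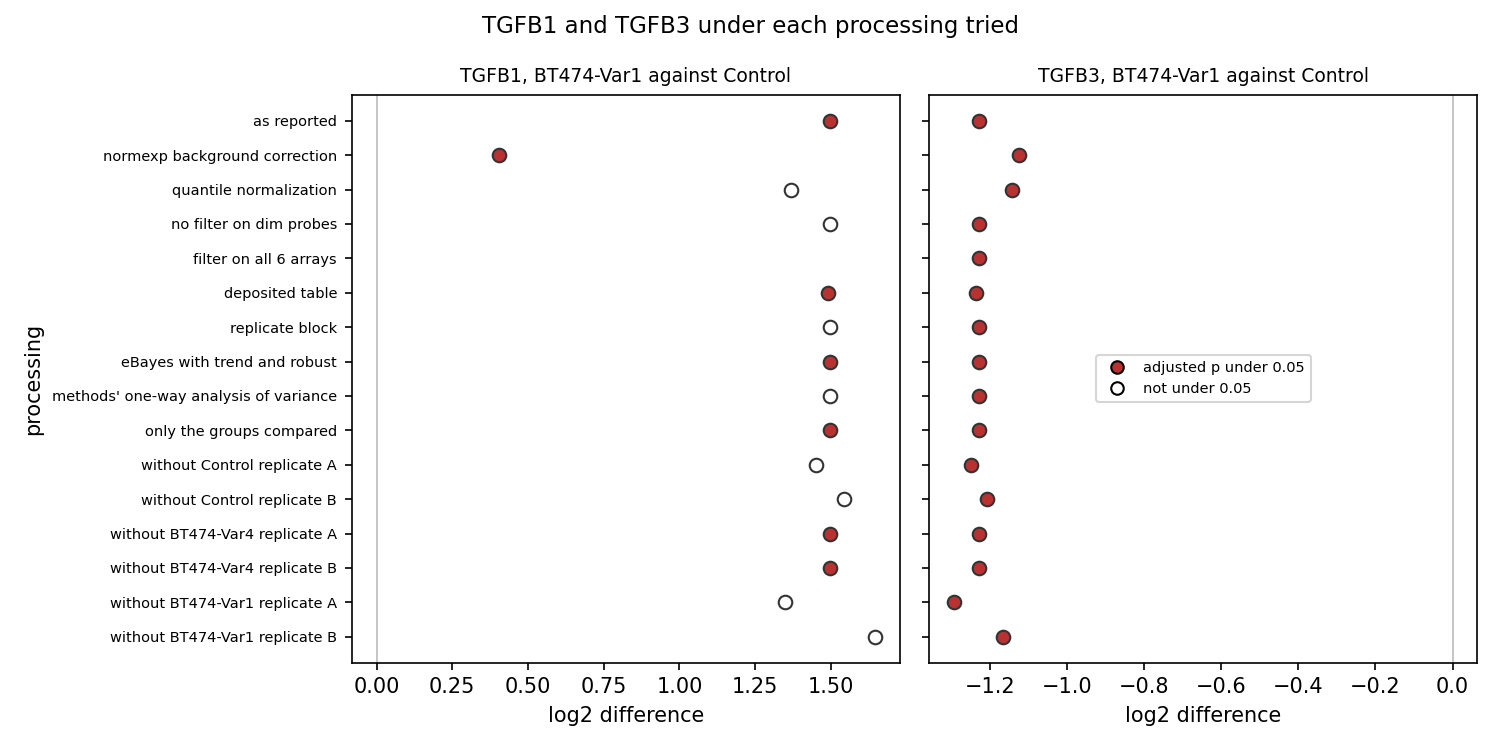
Log2 difference between BT474-Var1 cells and Control (x axis) of TGFB1 and TGFB3 under each processing (y axis); filled points had an adjusted p under 0.05. TGFB3 stays between -1.29 and -1.13 with every point filled, while TGFB1 lies at 0.40 with normexp and has 8 open points.

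Of 26708 probes well above background on all 6 arrays, those without a standard gene symbol, such as locus, transcript or lnc- identifiers, were not ranked. Among the rest, the 3 genes whose levels ran most like TGFB3 over the 6 arrays were FAM110B (Pearson r = 0.99964), METTL6 (r = 0.999259) and PIGS (r = 0.999087). This is a description, since the 6 arrays form 3 groups and any gene that is low in BT474-Var1 cells alone scores high. FAM110B averaged 0.81 in Control, 0.86 in BT474-Var4 and 0.29 in BT474-Var1 cells. TGFB1 and TGFB2 had no probe above background on all 6 arrays.

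Of 11 listed genes that store and release the ligands, 10 were tested. Against Control 3 were higher and 1 lower in BT474-Var4 cells, beside 9.87% and 14.3% of all tested probes, and 1 was higher and 2 lower in BT474-Var1 cells, beside 14.1% and 20.3%. Between the 2 populations 4 were higher and 1 lower in BT474-Var4 cells, beside 20.4% and 20.7%. ITGB6 and ITGB8, the beta chains that pair with the integrin chain ITGAV and activate latent TGF-beta, were 2.45-fold (limma adjusted p = 0.0229) and 2.74-fold (limma adjusted p = 0.0206) higher in BT474-Var4 cells. ITGB6 lay at -3.84 and -3.39 in Control and -2.15 and -2.51 in BT474-Var4 cells, and ITGB8 at -3.57 and -4.01 and at -2.54 and -2.13. In BT474-Var1 cells their differences of 0.74 (limma adjusted p = 0.0651) and 0.42 (limma adjusted p = 0.238) did not pass. Both calls in BT474-Var4 cells ended when any 1 of the 4 arrays compared was left out, with limma adjusted p of at most 0.0879. With normexp they were 0.29 and 0.28 on the log2 scale and still called.

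LTBP1, a binding protein that tethers latent TGF-beta to the matrix, fell 2.16-fold in BT474-Var1 cells (log2 difference -1.11, limma adjusted p = 0.00385). It lay at -0.27 and -0.22 in Control, -0.44 and -0.29 in BT474-Var4 and -1.30 and -1.41 in BT474-Var1 cells, so that the BT474-Var1 arrays stood apart. With normexp the fall was -0.58 and still called. In BT474-Var4 cells the difference was -0.12 (limma adjusted p = 0.316). The other LTBP1 probe gave -0.98 (limma adjusted p = 0.00359) in BT474-Var1 and -0.45 (limma adjusted p = 0.0161) in BT474-Var4 cells.

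DCN, decorin, a matrix proteoglycan that binds TGF-beta, was well above background on the BT474-Var4 arrays alone, at -1.35 and -1.75, and so entered the test, and the count of 3, only through the group where it was high. Its level there exceeded that of Control by at least 7.11-fold (limma adjusted p = 0.0125), a call lost without Control replicate A or without either BT474-Var4 array, with limma adjusted p of 0.0515 to 0.0596, and the log2 difference was 0.59 with normexp. DCN is also a fibroblast marker. Of 7 such markers, COL1A1 and PDGFRB were well above background on all 6 arrays, and COL1A2, COL3A1, LUM and THY1 on 0. The summed intensity of the 7, relative to the array's 75th percentile, was 3.14 to 3.18 in Control, 5.54 to 5.72 in BT474-Var4 and 3.69 to 3.82 in BT474-Var1 cells. The markers did not move together: COL1A1 averaged 1.14 in Control and 2.18 in BT474-Var4 cells, while PDGFRB averaged -0.21 and -0.53. Of 4 endothelial markers 2 were above background on all arrays, and their sum was 1.79 to 1.92 in BT474-Var1 cells and 2.46 to 2.81 on the other arrays, while 5 leukocyte markers had probes for 3 and a sum of 1.09 to 1.26 throughout. The part of other cell types in these results was not tested. In such bulk samples fewer cells of a type and less RNA per cell cannot be told apart.

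Of 20 SMADs and SMAD regulators tested, 5 were higher and 5 lower in BT474-Var1 cells, beside 14.1% and 20.3% of all tested probes. In BT474-Var4 cells 3 were higher and 2 lower, beside 9.87% and 14.3%. The median log2 differences were -0.01 and 0.04. SMAD6, the inhibitory SMAD that acts mainly on the BMP branch, rose 2.13-fold in BT474-Var4 cells, from 1.26 and 1.23 to 2.32 and 2.34 (limma adjusted p = 0.00267). It rose 1.3-fold in BT474-Var1 cells (limma adjusted p = 0.00819), which was not called without Control replicate B (limma adjusted p = 0.0526). SMAD9, a BMP-regulated SMAD, rose 2.14-fold in BT474-Var1 cells (log2 difference 1.1, limma adjusted p = 0.00985) and 1.99-fold in BT474-Var4 cells (limma adjusted p = 0.0175). The latter call was lost without Control replicate B or either BT474-Var4 array (limma adjusted p of 0.0567 to 0.0754). With normexp the rises were 0.46 and 0.38 on the log2 scale and still called. SMAD9 levels were -1.73 and -2.12 in Control, -0.91 and -0.95 in BT474-Var4 and -0.93 and -0.73 in BT474-Var1 cells. Among 7 other receptors and coreceptors tested of 8 listed, 2 were higher and 1 lower in BT474-Var4 cells, beside 9.87% and 14.3%. In BT474-Var1 cells 2 were higher and 0 lower, beside 14.1% and 20.3%, and none in either population changed by 2-fold.

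Activin is a relative of TGF-beta that also signals through SMAD2 and SMAD3, and its subunit INHBA, which forms activin A, rose in both populations. INHBA was not well above background in Control, at -4.01 and -3.99, and lay at -1.43 and -1.49 in BT474-Var4 and -3.00 and -3.13 in BT474-Var1 cells. It thus entered the test, and the counts of this list, only through the transfected populations, where it was high. Its level exceeded that of Control by at least 5.83-fold in BT474-Var4 (limma adjusted p = 0.00202) and by at least 1.91-fold in BT474-Var1 cells (limma adjusted p = 0.00383). With normexp the log2 differences were 0.60 and 0.19, still called but below these bounds. BT474-Var4 cells had 3.05-fold more than BT474-Var1 cells (limma adjusted p = 0.00120). Of 5 genes of this list tested out of 6, INHBA was higher and INHBB lower in BT474-Var4 cells, beside 9.87% and 14.3% of all tested probes. In BT474-Var1 cells INHBA and the activin inhibitor FSTL3 were higher and INHBB lower, beside 14.1% and 20.3%.

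Among genes that TGF-beta is known to induce, 20 were listed and 15 tested. In BT474-Var4 cells 9 were higher and 0 lower than in Control, beside 9.87% and 14.3% of all tested probes. In BT474-Var1 cells 5 were higher and 4 lower, beside 14.1% and 20.3%. Of the 9, ANGPTL4 was above background on 0 and CTGF on 1 of the Control arrays. At an unadjusted limma p under 0.05, too, 0 were lower in BT474-Var4 cells. Among the 4 lower in BT474-Var1 cells, NEDD9, a docking protein of focal adhesions, was chosen for mention after its values were seen, since its probes disagreed in BT474-Var1 cells, at -0.47 (limma adjusted p = 0.00697) on the brightest and 1.13 (limma adjusted p = 0.0285) on another. The median log2 difference was 0.40 and 0.24, against -0.08 and -0.04 for all tested probes. The list was chosen with results of these arrays known, and the comparisons share the Control arrays.

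TGFBI, a matrix protein named for its induction by TGF-beta, went in opposite directions. It lay at 2.13 and 2.14 in Control, 3.68 and 3.62 in BT474-Var4 and 0.57 and 0.61 in BT474-Var1 cells. It rose 2.87-fold in BT474-Var4 cells (log2 difference 1.52, limma adjusted p = 0.00203) and fell 2.91-fold in BT474-Var1 cells (log2 difference -1.54, limma adjusted p = 0.00230). The populations differed 8.35-fold (log2 difference 3.06, limma adjusted p = 5.7e-04), and all 3 calls held in each of 15 alternatives.

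PMEPA1, a membrane protein that withholds SMAD2 and SMAD3 from the receptor, lay at 5.70 and 5.64 in Control, 6.38 and 6.36 in BT474-Var4 and 5.95 and 5.88 in BT474-Var1 cells. It rose 1.62-fold in BT474-Var4 (limma adjusted p = 0.00525) and 1.18-fold in BT474-Var1 cells (limma adjusted p = 0.0317). The latter call held in 6 of 15 alternatives and was lost without any 1 array, and the other PMEPA1 probe gave 0.06 there (limma adjusted p = 0.426) and 0.39 in BT474-Var4 cells (limma adjusted p = 0.0120).

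CTGF, a matricellular protein, lay at -4.17 and -3.24 in Control, -2.23 and -2.35 in BT474-Var4 and -3.42 and -3.73 in BT474-Var1 cells. It rose 2.67-fold in BT474-Var4 cells (log2 difference 1.42, limma adjusted p = 0.0440), and 5 of 14 alternatives kept the call, which was lost without Control replicate A, either BT474-Var4 array or either BT474-Var1 array, with limma adjusted p of 0.0673 to 0.143. CDKN1A, the cell cycle inhibitor p21, rose 2.24-fold there (limma adjusted p = 0.0164), from -3.11 and -3.54 to -2.25 and -2.08, a call lost without Control replicate B or either BT474-Var4 array (limma adjusted p of 0.0557 to 0.0762). With normexp the rises of CTGF and CDKN1A were 0.27 and 0.28 on the log2 scale and still called.

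The 2 largest rises of the list in BT474-Var1 cells were those of ANGPTL4, a secreted inhibitor of lipoprotein lipase that hypoxia and PPARs also induce, and BHLHE40, a transcriptional repressor also known as DEC1. ANGPTL4 lay at -5.22 and -6.16 in Control, below background, and at -0.32 and -0.24 in BT474-Var1 cells, a rise of at least 17.1-fold in this processing (limma adjusted p = 0.00326), though the log2 difference was 1.24 with normexp, below that bound. It entered the test only through BT474-Var1 cells, where it was high. In BT474-Var4 cells, at -3.19 and -3.45, it was well above background on 1 array, so no fold is given. The call there (limma adjusted p = 0.0145) was lost without either BT474-Var4 array, with limma adjusted p of 0.0616 and 0.0658. BHLHE40 rose 9.45-fold in BT474-Var1 cells, from -3.60 and -3.55 to -0.43 and -0.24 (limma adjusted p = 0.00197), and 1.68-fold in BT474-Var4 cells (limma adjusted p = 0.0131), the latter not called without either Control array or BT474-Var4 replicate A (limma adjusted p of 0.0517 to 0.0735). With normexp the BHLHE40 differences were 1.21 and 0.17 on the log2 scale and still called. The plot of induced targets sets the 2 populations side by side.

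**Figure D4:**
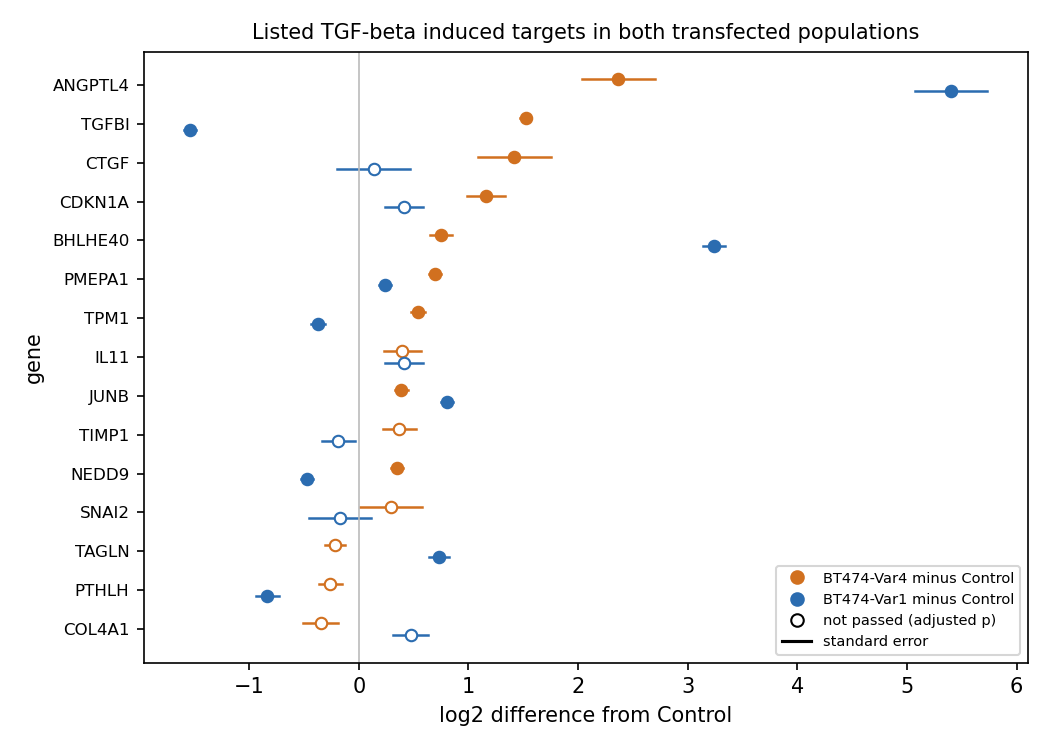
Log2 difference from Control (x axis) of the 15 tested targets (y axis) in BT474-Var4 and BT474-Var1 cells, with standard errors; filled points had an adjusted p under 0.05 by limma. TGFBI lies at 1.52 in BT474-Var4 and -1.54 in BT474-Var1 cells, and none of the filled BT474-Var4 points lies left of 0.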

How the data were processed

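Cy3-labeled RNA of 6 cell samples had been read on Agilent arrays in one color. The deposited scanner files hold spot intensity values from Feature Extraction 11.5.1.1, background-subtracted and detrended on a linear scale, with probes placed on hg19. The authors' table of log2 values was made in GeneSpring by a shift to each array's 75th percentile. The number of arrays limits the precision.

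The log2 of the processed intensity less the array's 75th percentile over non-control probes was used. Outlier spots were dropped and repeat spots of a probe averaged. A probe was tested if some group had it well above background on its 2 arrays, which held for 31855 of 58201 (54.7%). Group means were estimated over the 6 arrays in 1 linear model (limma 3.58.1, R 4.3.3), with a Benjamini-Hochberg adjustment over the tested probes and a threshold of 0.05. A bound replaces the fold for groups at background. The exact permutation test of 2 against 2 arrays cannot go below p = 0.333.

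The 9 genes and the lists were chosen with earlier results of these data known. Named were all probes of the 9 genes, list genes past the threshold with a 2-fold change against Control (at most 6 per list and comparison), always CTGF, TGFBI and PMEPA1, and the 3 genes most correlated with each ligand measured on all arrays. One further gene that the rule names is not reported here. A listed gene was read on its tested probe with the highest mean. Tried as alternatives were no filter, normexp (offset 50), quantile normalization, requiring signal on all 6 arrays, the authors' own table, a replicate block, eBayes with trend and robust estimation, the methods' one-way analysis of variance, only the groups compared, and each array left out, where a lone array is assumed to vary like the other groups. The pipeline was tested on simulated data. RefSeq promoters held all 9 genes.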

Additional observations from a re-analysis of the deposited data

Results flagged for a closer look

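By limma's test of BT474-Var4 against BT474-Var1 cells, the levels of the 2 populations differed for 4 of the 8 tested probes. This test does not use the Control arrays' level. The same test called 41.2% of all tested probes, and with 8 probes the count is not read further against that share. TGFB1 was lower in BT474-Var4 cells, by a log2 difference of -2.26 (adjusted p = 0.0134) and at least 4.07-fold by the bound in this processing. Over 14 alternatives the log2 difference ranged from -2.82 to -0.52, the latter below that bound. The call was lost without BT474-Var1 replicate A and without a filter on dim probes (limma adjusted p = 0.0505). It was also lost with the methods' one-way analysis of variance (adjusted p = 0.0533). TGFB3 was 1.38 higher (adjusted p = 0.00126), TGFBR2 on probe A_23_P211957 was 1.12 higher (adjusted p = 0.00124), and SMAD7 was 0.33 higher (adjusted p = 0.0182), the last not called without replicate B of either population. Slide column and BT474-Var1 cells cannot be told apart here.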

How the results depend on the processing

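Over 354 recomputed differences of the 8 tested probes, 310 kept direction and call, 23 lost the call, 8 gained one, 13 values that were not called changed sign, and 0 called values reversed. Of 573 such values for the 13 named list genes, 484 kept both, 81 lost the call and 0 reversed.

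Member probes past the threshold in BT474-Var1 against Control, 4 as reported, came to 2 without a filter, with a filter on all 6 arrays (which cannot test TGFB1 or the dimmer TGFBR2 probe), with the replicate block and with the methods' one-way analysis of variance, and to between 2 and 4 with 1 array left out. In BT474-Var4 against Control, 1 as reported, they came to 3 with normexp and with trend and robust estimation, 0 without a filter, where 1 had an unadjusted p under 0.05, and between 1 and 2 with 1 array left out. Between the populations, 4 as reported, they came to 2 without a filter and between 3 and 4 with 1 array left out. Other pathway genes past the threshold, 27, 23 and 28 in these 3 comparisons, came to 10, 3 and 13 without a filter, and to between 13 and 23, 7 and 19, and 17 and 27 with 1 array left out. The 27, 23 and 28 reported were of 57 tested genes. Over all tested probes the calls were 10958, 7707 and 13115, or 34.4%, 24.2% and 41.2%. Without a filter these calls came to 2672, 722 and 5112, or 4.59%, 1.24% and 8.78%. Leaving out the filter also moved the median difference in BT474-Var1 cells from -0.04 to 0.12. Calls over all probes also fell in each comparison with any 1 array left out, so the falls were not confined to pathway genes.

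No shift shared by the arrays of one letter, A or B, was seen: deviations correlated at 0.05, -0.01 and -0.02 between groups. The labels do not say whether the letters pair samples. With the replicate block the TGFB1 rise (adjusted p = 0.0688) and the fall of the dimmer TGFBR2 probe (adjusted p = 0.0772) in BT474-Var1 cells were not called, and no other member call changed. Dim signal limits TGFB1, TGFB2, TGFBR3 and the dimmer TGFBR2 probe. The causes were not tested.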
